A study of Mus musculus with 13 samples.

Results

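The interferon-stimulated genes described here are 41 genes that cells switch on when an interferon has bound its receptor. They were fixed as a list of gene symbols and looked up by symbol in the deposited expression table, in which 41 of 41 were found among 17957 entries. The 13 libraries held RNA of the mouse submandibular gland, which secretes saliva. Glands were taken on day 300, at 1 year of age, from mice of a strain labelled CH3. In 5 libraries (PreIR-GFP) the gland had received an adeno-associated virus vector for green fluorescent protein (AAV2-GFP), and in 5 (PreIR-NTN) the vector Cere-120 (AAV2-NRTN), which carries neurturin, a growth factor of parasympathetic neurons. Both vectors were injected 10 days before the gland was irradiated. The other 3 libraries (NonIR) came from glands that were not irradiated, and a vector for these mice is not named in the labels, so irradiation and vector cannot be told apart in a comparison with NonIR. The comparison of PreIR-NTN with PreIR-GFP asks about the vector's cargo in irradiated glands. Replicate numbers are not tied to named animals in the labels, so p-values measure the spread between these libraries.

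Interferons alpha and beta signal through receptor-bound kinases to a complex that holds STAT2 and IRF9 and binds a DNA element called ISRE, while interferon gamma acts mainly through an element called GAS. The genes induced this way encode sensors of foreign nucleic acid, proteins that block viral RNA or its translation, ubiquitin-like and ADP-ribosyl modifiers, membrane restriction factors and large GTPases that attack vacuoles of intracellular microbes. In salivary glands this programme is best known from Sjögren's disease, an autoimmune disorder in which it is raised.

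The DNA upstream of 5 members is shown because their RNA levels carry most of what follows. Igtp, Irgm1, Ifit3 and Isg15 had their highest level of all 13 libraries in PreIR-GFP 4, and Ddx58 had the smallest p of any member against NonIR. Each line gives the 170 bases before the transcript start in RefSeq on GRCm38.p6, and capitals mark matches to the ISRE core (GAAA, any 2 bases and GAAA again, or TTTC, any 2 bases and TTTC on the other strand) or to the GAS core TTCNNNGAA.
Igtp: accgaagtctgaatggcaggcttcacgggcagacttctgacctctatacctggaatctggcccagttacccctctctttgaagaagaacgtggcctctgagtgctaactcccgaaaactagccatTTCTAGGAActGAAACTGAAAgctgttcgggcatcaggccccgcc
Irgm1: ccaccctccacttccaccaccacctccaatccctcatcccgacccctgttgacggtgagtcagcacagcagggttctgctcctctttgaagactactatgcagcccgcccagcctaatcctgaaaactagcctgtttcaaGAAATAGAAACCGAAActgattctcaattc
Ifit3: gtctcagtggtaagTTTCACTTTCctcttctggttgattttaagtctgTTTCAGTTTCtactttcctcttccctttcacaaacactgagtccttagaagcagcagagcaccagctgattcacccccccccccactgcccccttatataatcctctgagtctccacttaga
Isg15: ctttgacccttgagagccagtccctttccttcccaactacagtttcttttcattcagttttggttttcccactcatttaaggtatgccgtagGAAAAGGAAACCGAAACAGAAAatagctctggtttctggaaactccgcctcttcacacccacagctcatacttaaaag
Ddx58: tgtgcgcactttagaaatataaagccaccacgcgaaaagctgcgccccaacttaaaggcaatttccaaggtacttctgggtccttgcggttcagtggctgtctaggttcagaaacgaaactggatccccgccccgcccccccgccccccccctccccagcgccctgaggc
The windows lie on the plus strand at chr11:58199386-58199555 for Igtp and chr19:34583359-34583528 for Ifit3. They lie on the minus strand at chr11:48871421-48871590 for Irgm1, chr4:156200819-156200988 for Isg15 and chr4:40239826-40239995 for Ddx58. Isg15 held 3 overlapping ISRE matches, Irgm1 and Ifit3 held 2 each, and in Igtp 1 GAS match stood just before 1 ISRE match. Ddx58 held neither. In the 250 bases before the start, on both strands and with overlapping matches counted, 13 of the 31 members with an entry held the ISRE core (41.9%), against 3.46% of 27025 genes. The GAS core was found in 7 of 31 (22.6%), against 8.13% of genes. No entry was matched for Oas2, Rtp4, Iigp1, Parp14, Mx1, Parp9, Mx2, Usp18, Ifi27 and Zbp1. A match is a description of letters in this window, not a bound site.

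Levels are the authors' deposited normalised values in CPM, reads relative to the TMM-scaled size of the library, on which 1 gene can be compared between libraries. Libraries held 9724304 to 16771004 reads. Marker RNAs of salivary acinar cells were abundant in every library, from 51900 to 216000 CPM summed over 13 genes. The AAV2 and EGFP entries of the count table held 0 reads in every library, so the vectors could not be checked from them. PreIR-GFP 4 had the most reads, and its TMM factor of 0.885 lay inside the range of the other libraries, 0.768 to 1.42.

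For most of the 41 members the range inside a group exceeded the difference of group means, a count not made over all genes. The highest level of most members came from 1 library of the GFP group. PreIR-GFP 4 had the highest level of all 13 libraries for 29 of 41 members (70.7%), against 6.97% of the 14727 genes tested. It was the highest of its own group for 32 members, against 20.8% of all genes. Across the members its level was 0.81 to 5.00 times the mean of the other 4 GFP libraries, with a median of 1.62, against a median of 0.99 over all genes tested. The summed level of the 41 members was 3399 CPM in PreIR-GFP 4, and 1313 to 2190 CPM in the other 12 libraries. This sum follows the most abundant members, with Gbp3 at 748, Ifi27 at 417, Ifitm3 at 337 and Stat2 at 266 CPM in PreIR-GFP 4. In bulk tissue a larger share of responding cells and more RNA per cell cannot be told apart.

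**Figure D1:**
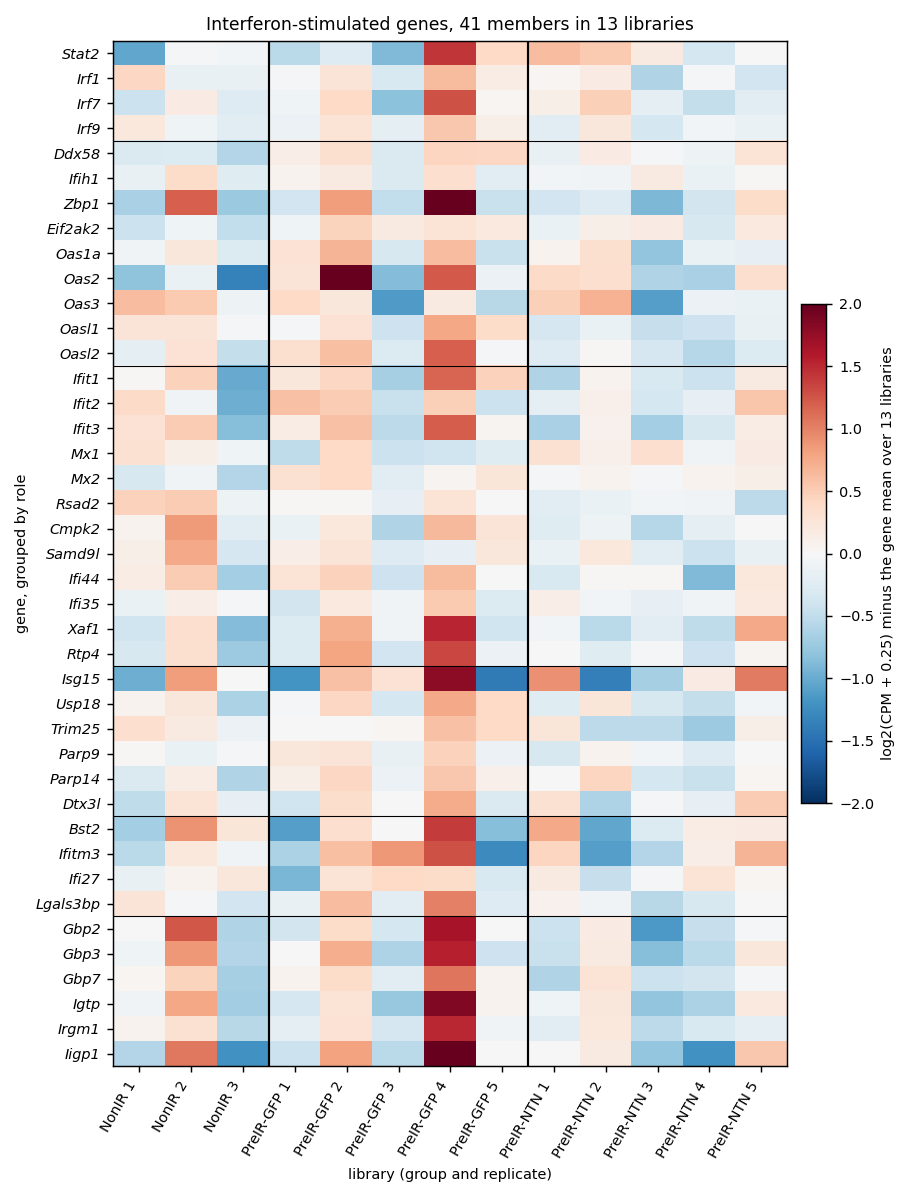
Level of each of the 41 members (rows, grouped by role, with lines between roles) in each of the 13 libraries (columns, with lines between groups), as log2 of CPM plus 0.25 minus the gene's mean over the libraries; the colour scale runs from -2 to 2 and values beyond it take the end colour. The column of PreIR-GFP 4 is red for most rows, and NonIR 2 and PreIR-GFP 2 are red for many of the same GTPase rows.

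The non-irradiated group was uneven too, though less so than the GFP group in summed member level. NonIR 2 was the highest of the 3 NonIR libraries for 31 members, against 28.8% of all genes. NonIR 3 was the lowest for 32, against 29.2% of all genes. NonIR 2 exceeded NonIR 3 for 39 of 41 members, by a median of 1.71 times, whereas it did so for 43.9% of all genes tested, with a median of 0.96 times. NonIR 3 had the lowest level of all 13 libraries for 14 members, against 5.74% of all genes. Among the GFP libraries PreIR-GFP 3 was the lowest of its group for 28 members, against 16.6% of all genes. In summed member level the neurturin libraries were the most even, at 1559 ± 187 CPM (SD, n = 5). The sum was 1989 ± 853 CPM in PreIR-GFP (SD, n = 5) and 1602 ± 362 CPM in NonIR (SD, n = 3).

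Against non-irradiated glands, glands irradiated after AAV2-GFP showed small, mostly upward differences in member RNAs, none of which passed the test. The median log2 difference of the 41 members was 0.33, against 0.02 over all genes tested, and 34 members (82.9%) lay above 0, against 52.7% of all genes. With edgeR's quasi-likelihood test and Benjamini-Hochberg adjustment over all genes, 0 of 41 members passed an adjusted p of 0.05, where 0.034% of all genes did. At an unadjusted p of 0.05, 4 members were higher (9.76%) and 0 lower, against 5.17% and 3.35% of all genes, 8.51% in either direction. These 4 were Ddx58, Eif2ak2, Mx2 and Oas2. DESeq2 and limma-voom also called 0 members, with 4 members each under an unadjusted p of 0.05. For no member did the GFP and NonIR libraries fail to overlap, against 2.80% of genes higher and 2.40% lower.

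The size of this difference rested on single libraries. Without PreIR-GFP 4 the member median was 0.06, 23 members stayed above 0 and 11 of 41 turned sign. Without NonIR 2 the median was 0.60, and without NonIR 3 it was 0.14. Leaving out 1 library or another turned the sign of 16 of the 41 members. The lowest of a member's leave-one-out values came without PreIR-GFP 4 for 22 members and without NonIR 3 for 15. For 37 of 41 members the range inside the 3 NonIR libraries alone exceeded the difference of the group means. Counts of turned signs and of ranges, here and below, were not made over all genes, so they do not set the members apart.

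**Figure D2:**
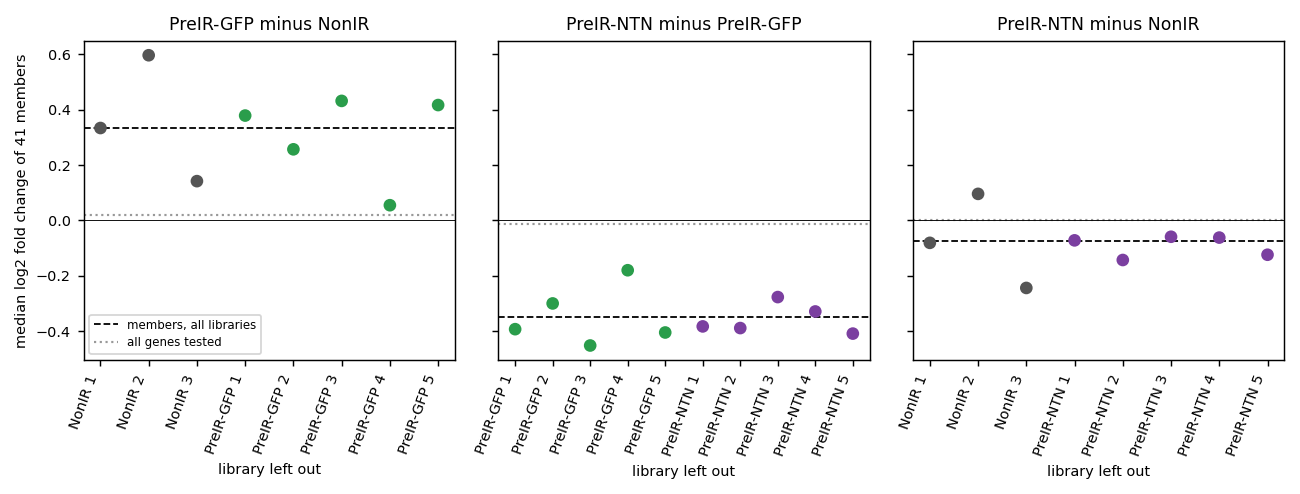
Median log2 fold change of the 41 members (vertical axis) when the library named on the horizontal axis is left out, in 3 panels for the 3 comparisons; grey points stand for NonIR, green for PreIR-GFP and purple for PreIR-NTN libraries left out, and lines mark the value with all libraries and the median of all genes tested. Leaving out PreIR-GFP 4 moves the first panel from 0.33 to 0.06 and the second from -0.35 to -0.18, and leaving out NonIR 2 moves the third from -0.08 to 0.10.

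With neurturin in place of GFP in the vector, member RNAs of irradiated glands were mostly lower, and again none passed the test. The median log2 difference was -0.35, against -0.01 over all genes, and 39 of 41 members (95.1%) lay below 0, against 52.7% of all genes; Mx1 and Oas3 lay above. With edgeR's test 0 members were called, where 0.0204% of all genes were. At an unadjusted p of 0.05, 2 members (4.88%) were lower, Oasl1 and Oasl2, and 0 higher, against 3.56% and 2.22% of all genes, 5.79% in either direction. DESeq2 and limma-voom called 0 members, with 5 and 3 under an unadjusted p of 0.05. The groups overlapped for every member, where 0.373% of genes stood apart higher and 0.74% lower. This comparison shares the 5 GFP libraries with the one above, so PreIR-GFP 4 enters both with opposite sign. Without it the median was -0.18, 31 members stayed below 0 and 8 turned sign. Leaving out 1 library or another turned the sign of 9 of the 41 members.

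Between neurturin-treated irradiated glands and non-irradiated glands, the members lay on both sides of 0. Their median log2 difference was -0.08 (0.00 over all genes), with 15 members above 0, where 50.5% of all genes were, and 26 below (63.4%, against 49.5% of all genes). No member passed edgeR's test, where 0.0136% of all genes did. Ddx58 and Eif2ak2 were higher and Rsad2 and Oasl1 lower at an unadjusted p of 0.05, 2 members (4.88%) each way against 4.07% and 3.59% of all genes, 7.65% in either direction. DESeq2 called 0 members with 2 under an unadjusted p of 0.05, and limma-voom 0 with 3. Ddx58 and Mx2 had all 5 neurturin libraries above all 3 NonIR libraries and Oasl1 had them all below, against 3.11% and 3.43% of all genes. NonIR 2 set the direction of the median: without it the median was 0.10 and 13 members turned sign, and without NonIR 3 it was -0.24.

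The signal relay members are the transcription factors of the pathway. STAT2, a part of the complex bound to ISRE, is encoded by Stat2 (ENSMUSG00000040033, chr10:128270559-128292849 on GRCm38). In the text that follows, values are listed in order of replicate number. The levels of Stat2 were 48.1, 96.6 and 95.0 CPM in the NonIR libraries, 67.6, 82.6, 53.3, 266 and 130.3 in the PreIR-GFP libraries and 152, 142, 112, 77.4 and 99.4 in the PreIR-NTN libraries. PreIR-GFP 4 stood at 3.19 times the mean of the other 4 GFP libraries, and NonIR 1 was the lowest library of all. Between GFP and NonIR the log2 difference was 0.59 (SE 0.49, adjusted p = 0.805), and 0.08 without PreIR-GFP 4. That of neurturin from GFP was -0.04 (SE 0.42, adjusted p = 0.998), and 0.48 without that library, so its direction turned.

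Irf7, the regulator that amplifies interferon production, followed the same libraries. In NonIR Irf7 stood at 56.6, 85.3 and 63.9 CPM, in PreIR-GFP at 72.0, 100.4, 43.1, 185 and 78.7 and in PreIR-NTN at 82.6, 106, 66.7, 54.6 and 65.8. PreIR-GFP 4 was the highest and PreIR-GFP 3 the lowest of all 13, so the GFP group spanned both other groups. The log2 differences were 0.49 for GFP from NonIR (SE 0.38, adjusted p = 0.787) and -0.35 for neurturin from GFP (SE 0.33, adjusted p = 0.977), or 0.12 and 0.03 without PreIR-GFP 4. Irf9 was at 45.5, 37.2 and 34.0 CPM in NonIR, at 36.3, 47.6, 34.5, 57.4 and 42.6 in PreIR-GFP and at 33.9, 46.1, 30.6, 37.7 and 35.7 in PreIR-NTN. Irf9, the DNA-binding part of the STAT complex, overlapped between all groups. The levels of Irf1 were 34.1, 23.2 and 22.9 CPM in the NonIR libraries, 25.3, 30.8, 20.6, 40.0 and 28.4 in the PreIR-GFP libraries and 26.2, 28.7, 16.75, 24.9 and 19.5 in the PreIR-NTN libraries. Irf1, a regulator downstream of interferon gamma, was highest in PreIR-GFP 4 as well, but NonIR 1 came next. For Irf9 and Irf1 the log2 differences of GFP from NonIR were 0.18 and 0.13, and those of neurturin from GFP -0.25 and -0.32, with adjusted p from 0.840 to 0.928. Irf7 shares its locus with Phrf1 on the opposite strand and Irf9 shares its own with Rnf31 on the same strand. The sources used here do not say whether counting used strand, so reads of such overlapping genes cannot be told apart.

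Among the sensors, Ddx58, Eif2ak2 and Oas2 had higher mean levels in both irradiated groups than in non-irradiated glands, with or without PreIR-GFP 4. Oas2 is described with its family below. Ddx58 (ENSMUSG00000040296, chr4:40203773-40239828) encodes RIG-I, which detects viral RNA ends. In NonIR Ddx58 stood at 87.5, 88.3 and 70.9 CPM, in PreIR-GFP at 118, 134, 87.1, 144 and 142 and in PreIR-NTN at 97.0, 119, 104, 99.6 and 129.8. Of the 10 irradiated libraries, 9 lay above all NonIR libraries, and PreIR-GFP 3 lay within them. The level was 82.2 ± 9.78 CPM in NonIR (SD, n = 3), 125 ± 23.5 in PreIR-GFP (SD, n = 5) and 110.0 ± 14.1 in PreIR-NTN (SD, n = 5). The log2 difference of GFP from NonIR was 0.61 (SE 0.17, unadjusted p = 0.00222, adjusted p = 0.290), with values from 0.51 to 0.72 when any 1 library was left out and 0.56 without PreIR-GFP 4. For neurturin from NonIR it was 0.43 (SE 0.17, adjusted p = 0.578), from 0.33 to 0.49 with 1 library left out. Neurturin and GFP libraries differed by -0.19 (SE 0.14, adjusted p = 0.941).

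Eif2ak2 encodes PKR, a kinase that stops translation when it binds viral RNA. Eif2ak2 was at 22.4, 28.6 and 21.4 CPM in NonIR, at 28.4, 41.1, 34.2, 36.8 and 34.7 in PreIR-GFP and at 27.5, 33.0, 34.0, 24.2 and 34.7 in PreIR-NTN. PreIR-GFP 2 was the highest, and PreIR-GFP 1 was the only GFP library not above NonIR 2. For GFP from NonIR the log2 difference was 0.55 (SE 0.16, adjusted p = 0.349), or 0.54 without PreIR-GFP 4, and that of neurturin from NonIR was 0.36 (SE 0.16, adjusted p = 0.652).

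The 2'-5'-oligoadenylate synthetases, which make the second messenger that activates an RNA-cutting enzyme, differed from one another. The levels of Oas2 were 6.11, 9.85 and 4.10 CPM in the NonIR libraries, 13.1, 44.1, 5.85, 25.8 and 10.0 in the PreIR-GFP libraries and 14.3, 13.8, 7.11, 6.89 and 13.7 in the PreIR-NTN libraries. PreIR-GFP 2 was the highest library for Oas2, followed by PreIR-GFP 4, and the groups overlapped. The log2 difference of GFP from NonIR, 1.58 (SE 0.63, adjusted p = 0.532), was 1.05 without PreIR-GFP 2, and that of neurturin from GFP, -0.83 (SE 0.51, adjusted p = 0.916), was -0.29 without it. In NonIR Oas1a stood at 6.997, 8.66 and 6.06 CPM, in PreIR-GFP at 9.11, 12.02, 5.85, 11.4 and 5.33 and in PreIR-NTN at 7.75, 9.30, 4.17, 6.74 and 6.55. Oas1a was likewise highest in PreIR-GFP 2, with log2 differences of 0.29 and -0.34 (adjusted p 0.842 and 0.934). Oas3 was a low RNA, at 0.234 to 1.46 CPM, and lay below NonIR on average in both irradiated groups. Oas1a belongs to a family of near-identical copies, among which reads could be split.

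The related Oasl1 and Oasl2 gave the smallest p-values of the neurturin and GFP comparison. Oasl1 was at 13.1, 13.1 and 10.7 CPM in NonIR, at 10.7, 13.4, 8.11, 18.8 and 14.2 in PreIR-GFP and at 8.61, 9.94, 7.84, 8.12 and 9.78 in PreIR-NTN. PreIR-GFP 3 lay among the neurturin libraries, and the other 4 GFP libraries above all 5 of them. The levels of Oasl2 were 17.97, 25.2 and 14.7 CPM in the NonIR libraries, 25.8, 31.5, 16.9, 47.3 and 20.1 in the PreIR-GFP libraries and 17.1, 21.1, 16.3, 13.8 and 17.0 in the PreIR-NTN libraries. Here PreIR-GFP 3 and PreIR-GFP 5 lay inside the neurturin range, whose upper end was 21.1 CPM. The log2 differences of neurturin from GFP were -0.56 for Oasl1 (SE 0.19, unadjusted p = 0.00823) and -0.73 for Oasl2 (SE 0.24, unadjusted p = 0.00880), both with an adjusted p of 0.691. Without PreIR-GFP 4 they were -0.40 and -0.47. Of GFP from NonIR they were 0.10 for Oasl1 (adjusted p = 0.951) and 0.56 for Oasl2 (SE 0.28, adjusted p = 0.627), which was 0.30 without PreIR-GFP 4. Oasl1 was also lower in neurturin than in NonIR libraries, with a log2 difference of -0.47 (SE 0.21, adjusted p = 0.652).

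Zbp1, a sensor of left-handed nucleic acid that can start necroptosis, had the largest ratio of PreIR-GFP 4 to the other 4 GFP libraries. In NonIR Zbp1 stood at 1.51, 6.03 and 1.39 CPM, in PreIR-GFP at 1.87, 4.66, 1.72, 12.5 and 1.78 and in PreIR-NTN at 1.86, 2.05, 1.23, 1.89 and 3.31. PreIR-GFP 4 was at 5.00 times their mean and at 2.08 times the next of all 13, NonIR 2, while the remaining libraries lay between 1.23 and 4.66 CPM. Its log2 difference of GFP from NonIR was 0.62 (SE 0.73, adjusted p = 0.871), and -0.22 without PreIR-GFP 4. For neurturin from GFP it was -1.12 (SE 0.64, adjusted p = 0.902), and -0.29 without that library. Ifih1, which encodes the long-RNA sensor MDA5, stayed between 18.2 and 28.9 CPM in all 13 libraries.

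The interferon-inducible GTPases gave the largest drop of any role when PreIR-GFP 4 was left out. All 6 were highest in that library, their median log2 difference of GFP from NonIR was 0.39 with it and -0.10 without, and that of neurturin from GFP was -0.70 with it and -0.22 without. Igtp (ENSMUSG00000078853, chr11:58199556-58207591), whose promoter is printed above, encodes Irgm3, an immunity-related GTPase that acts on vacuoles of microbes. Igtp was at 35.9, 64.6 and 23.3 CPM in NonIR, at 29.9, 45.8, 22.4, 137 and 40.0 in PreIR-GFP and at 35.5, 44.5, 21.7, 24.2 and 43.1 in PreIR-NTN. PreIR-GFP 4 exceeded the next library, NonIR 2, by 2.12 times, and the other 12 libraries formed 1 overlapping range. The level was 41.3 ± 21.2 CPM in NonIR (SD, n = 3), 55.0 ± 46.8 in PreIR-GFP (SD, n = 5) and 33.8 ± 10.5 in PreIR-NTN (SD, n = 5), and PreIR-GFP without replicate 4 had a mean of 34.5 CPM. The log2 difference of GFP from NonIR went from 0.42 (SE 0.57, adjusted p = 0.896) to -0.24, and that of neurturin from GFP from -0.70 (SE 0.49, adjusted p = 0.931) to -0.03. Igtp overlaps Irgm2 on the same strand, and Irgm2 was also highest in PreIR-GFP 4, at 35.4 CPM.

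Iigp1, a further immunity-related GTPase, repeated this. The levels of Iigp1 were 7.75, 24.8 and 4.92 CPM in the NonIR libraries, 8.61, 20.8, 8.04, 53.9 and 11.8 in the PreIR-GFP libraries and 11.6, 13.3, 6.78, 4.93 and 17.3 in the PreIR-NTN libraries. PreIR-GFP 4 was highest, followed by NonIR 2 and PreIR-GFP 2. Its log2 difference of GFP from NonIR was 0.74 (SE 0.75, adjusted p = 0.844) and 0.00 without PreIR-GFP 4, but 1.70 without NonIR 2. That of neurturin from GFP was -0.93 (SE 0.64, adjusted p = 0.931), and -0.20 without PreIR-GFP 4. In NonIR Gbp2 stood at 15.6, 37.4 and 10.2 CPM, in PreIR-GFP at 12.1, 20.2, 12.2, 49.4 and 15.5 and in PreIR-NTN at 11.5, 17.6, 6.94, 11.3 and 15.2. Gbp2, a guanylate-binding protein that coats microbes in the cytosol, had the same 3 libraries on top. Its log2 differences were 0.06 for GFP from NonIR (SE 0.54, adjusted p = 0.990) and -0.80 for neurturin from GFP (SE 0.47, adjusted p = 0.915), or -0.48 and -0.26 without PreIR-GFP 4. Gbp3, at 141 to 748 CPM the most abundant of the role, Gbp7 (12.5 to 42.2 CPM) and Irgm1 (33.9 to 142 CPM) were also highest in PreIR-GFP 4. The guanylate-binding protein genes are similar in sequence, so reads could be split among copies.

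**Figure D3:**
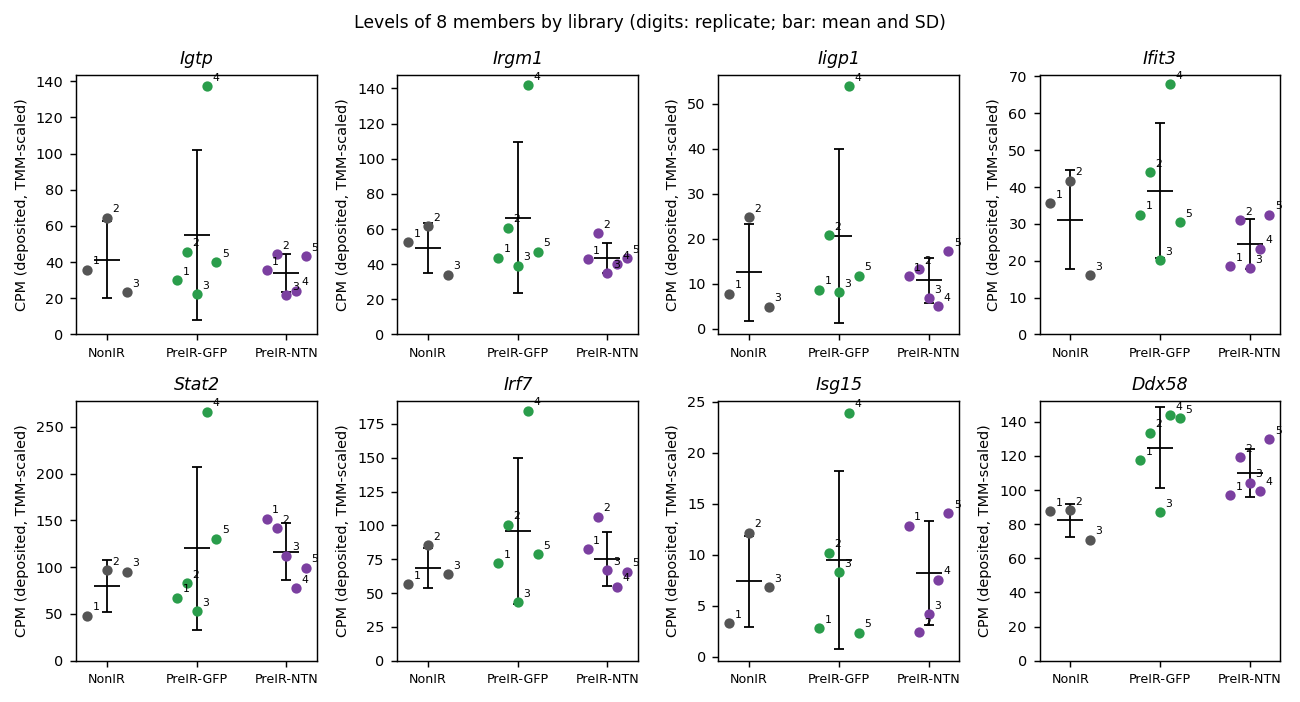
Levels of 8 members in CPM (vertical axes, linear, from 0 or just below) by group, with 1 point per library labelled by its replicate number, a horizontal mark at the group mean and bars of 1 SD (n = 3 for NonIR, n = 5 for the others). PreIR-GFP 4 stands apart above all libraries for Igtp, Irgm1 and Iigp1, at 137, 142 and 53.9 CPM, but not for Ddx58, at 144 CPM beside PreIR-GFP 5 at 142 CPM.

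Among the cytoplasmic effectors, the Ifit genes, whose proteins bind the ends of foreign RNA, were lowest in NonIR 3 and highest, except Ifit2, in PreIR-GFP 4. Ifit1 was at 29.5, 40.4 and 14.3 CPM in NonIR, at 34.1, 39.1, 18.4, 65.6 and 40.1 in PreIR-GFP and at 19.2, 30.5, 23.6, 21.6 and 33.1 in PreIR-NTN. The levels of Ifit3 were 35.6, 41.8 and 16.1 CPM in the NonIR libraries, 32.4, 44.1, 20.2, 67.9 and 30.4 in the PreIR-GFP libraries and 18.5, 30.9, 18.1, 23.3 and 32.5 in the PreIR-NTN libraries. For both, PreIR-GFP 4 was at 1.54 times the next library or more, and that next library was NonIR 2 for Ifit1 and PreIR-GFP 2 for Ifit3. The log2 differences of GFP from NonIR were 0.50 for Ifit1 and 0.33 for Ifit3 (adjusted p 0.781 and 0.871). Without NonIR 3 they were 0.18 and 0.02. Those of neurturin from GFP were -0.63 for Ifit1 (SE 0.33, adjusted p = 0.892) and -0.66 for Ifit3 (SE 0.34, adjusted p = 0.885), or -0.37 each without PreIR-GFP 4. Ifit3 has a near-identical copy, Ifit3b, with which it may share reads. Ifit2 was a low RNA, between 1.56 and 5.10 CPM.

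The Mx genes, dynamin-like GTPases that trap viral capsids, and Rsad2, which encodes viperin, did not have their highest level in PreIR-GFP 4. In NonIR Mx2 stood at 2.61, 3.14 and 2.13 CPM, in PreIR-GFP at 4.16, 4.47, 2.81, 3.45 and 3.97 and in PreIR-NTN at 3.23, 3.51, 3.27, 3.48 and 3.63. All 5 neurturin libraries and 4 of 5 GFP libraries lay above the 3 NonIR libraries. The log2 difference of GFP from NonIR was 0.54 (SE 0.21, adjusted p = 0.507), and 0.57 without PreIR-GFP 4. Mx2 is annotated as a polymorphic pseudogene in GENCODE. Mx1 was at 1.58, 1.36 and 1.15 CPM in NonIR, at 0.789, 1.71, 0.858, 0.880 and 1.01 in PreIR-GFP and at 1.58, 1.34, 1.63, 1.16 and 1.42 in PreIR-NTN. Mx1 was at or below 1.71 CPM in every library, and 4 of the 5 GFP libraries were the lowest 4 of all 13, for log2 differences of -0.36 and 0.43 (adjusted p 0.811 and 0.916). The levels of Rsad2 were 7.55, 7.81 and 5.08 CPM in the NonIR libraries, 5.53, 5.52, 4.84, 6.64 and 5.45 in the PreIR-GFP libraries and 4.59, 4.91, 5.23, 5.15 and 3.71 in the PreIR-NTN libraries. NonIR 1 and NonIR 2 were the highest for Rsad2, PreIR-GFP 4 came next as the highest of its group, and NonIR 3 lay among the irradiated libraries. Its log2 difference of neurturin from NonIR, -0.52 (SE 0.19, unadjusted p = 0.0126, adjusted p = 0.545), ran from -0.70 to -0.42 when any 1 library was left out. That of GFP from NonIR was -0.27 (SE 0.19, adjusted p = 0.734). The remaining effectors were Cmpk2 at 5.62 to 15.9 CPM, Samd9l at 4.71 to 11.0, Ifi44 at 6.82 to 19.98, Ifi35 at 29.4 to 55.2, Xaf1 at 4.34 to 23.7 and Rtp4 at 16.1 to 67.7 CPM. Cmpk2 and Samd9l were highest in NonIR 2 and the other 4 in PreIR-GFP 4.

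The ubiquitin-like system includes Isg15, a ubiquitin-like protein coupled to targets, and Usp18, the protease that removes it and also damps the receptor. In NonIR Isg15 stood at 3.29, 12.1 and 6.80 CPM, in PreIR-GFP at 2.80, 10.2, 8.27, 23.9 and 2.37 and in PreIR-NTN at 12.8, 2.46, 4.17, 7.54 and 14.04. Isg15 varied 10.1-fold between libraries, and each group held both libraries under 5 CPM and libraries over 10 CPM. Its log2 difference of GFP from NonIR was 0.37 (SE 0.81, adjusted p = 0.949), and -0.31 without PreIR-GFP 4. For neurturin from GFP it was -0.21 (SE 0.69, adjusted p = 0.998), and 0.47 without it. Usp18 was at 25.2, 28.0 and 15.4 CPM in NonIR, at 23.4, 31.8, 18.6, 40.7 and 31.4 in PreIR-GFP and at 20.2, 28.4, 19.0, 17.2 and 23.0 in PreIR-NTN. Usp18 spread less, 2.64-fold, with log2 differences of 0.36 (SE 0.25, adjusted p = 0.738) and -0.44 (SE 0.21, adjusted p = 0.865). The levels of Trim25 were 3.91, 3.48 and 2.79 CPM in the NonIR libraries, 3.01, 3.02, 3.12, 4.67 and 4.08 in the PreIR-GFP libraries and 3.66, 2.05, 2.04, 1.74 and 3.31 in the PreIR-NTN libraries. Trim25, a ubiquitin ligase that activates RIG-I, was lowest in PreIR-NTN 4, 3 and 2, while PreIR-NTN 1 and 5 lay among the GFP libraries. The log2 difference of neurturin from GFP was -0.49 (SE 0.24, adjusted p = 0.865), and that of GFP from NonIR 0.09 (SE 0.27, adjusted p = 0.971). Parp9, Dtx3l and Parp14, of the ADP-ribosyl system, were all highest in PreIR-GFP 4, at 17.3, 35.4 and 10.4 CPM. Parp9 and Dtx3l overlap on opposite strands, so their reads are not fully separate.

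Membrane and secreted members were dominated by differences between libraries of a group. Per kilobase of exon, Ifitm3 and Ifi27 had the highest mean levels of all members over the 13 libraries, 233 and 226 CPM per kilobase, against 88.2 for Gbp3 and 0.126 for Oas3, the lowest. In NonIR Ifitm3 stood at 95.1, 161 and 132 CPM, in PreIR-GFP at 88.9, 209.9, 253, 337 and 57.4 and in PreIR-NTN at 187, 64.6, 91.8, 152 and 222. Ifitm3, which blocks the entry of viruses at membranes, was highest in PreIR-GFP 4, yet the lowest library was in the same group. Its log2 differences were 0.56 (SE 0.57, adjusted p = 0.844) and -0.40 (SE 0.48, adjusted p = 0.989), or 0.25 and -0.09 without PreIR-GFP 4. Bst2 was at 5.08, 15.6 and 9.83 CPM in NonIR, at 3.73, 10.5, 8.35, 22.3 and 4.50 in PreIR-GFP and at 14.1, 3.92, 6.78, 9.21 and 9.31 in PreIR-NTN. Bst2, the tetherin that holds budding virus on the cell, had log2 differences of -0.03 (SE 0.59, adjusted p = 0.996) and -0.19 (SE 0.51, adjusted p = 0.998), which became -0.57 and 0.35 without PreIR-GFP 4. The levels of Lgals3bp were 64.8, 53.3 and 41.2 CPM in the NonIR libraries, 48.8, 82.6, 46.3, 109 and 44.9 in the PreIR-GFP libraries and 57.2, 51.5, 36.4, 43.1 and 54.0 in the PreIR-NTN libraries. Lgals3bp, a secreted galectin ligand, was highest in PreIR-GFP 4, with differences of 0.33 (SE 0.28, adjusted p = 0.813) and -0.46 (SE 0.24, adjusted p = 0.892), or 0.08 and -0.21 without it. Ifi27 lay between 171 and 425 CPM and had overlapping groups throughout.

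**Figure D4:**
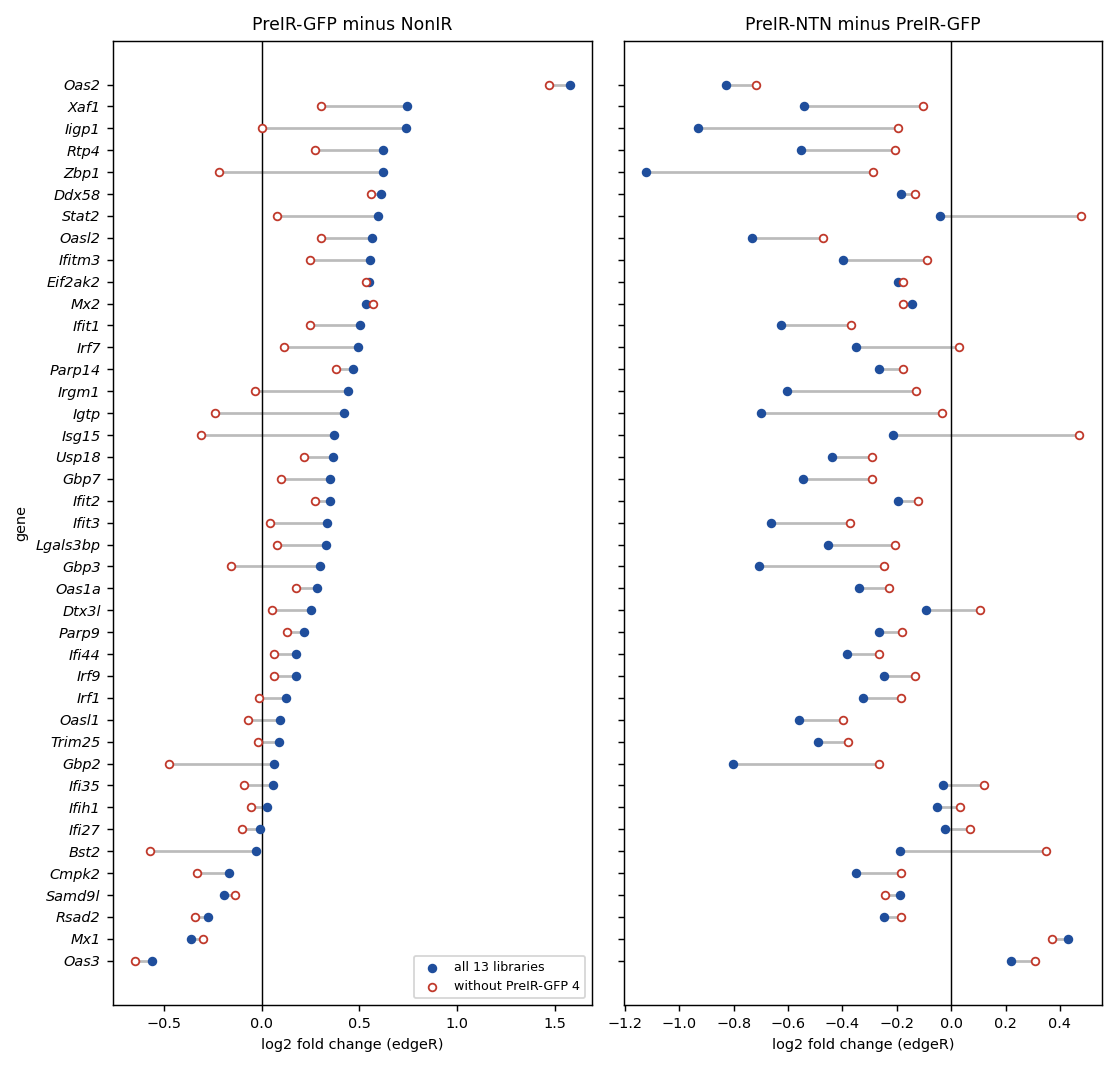
Log2 fold change (horizontal axis) of each of the 41 members (vertical axis, in the order of the left panel) for PreIR-GFP minus NonIR (left) and PreIR-NTN minus PreIR-GFP (right), with all 13 libraries (filled points) and without PreIR-GFP 4 (open points). Most points move toward or past 0 when the library is left out, and those of Ddx58, Eif2ak2 and Mx2 on the left hardly move, from 0.61, 0.55 and 0.54 to 0.56, 0.54 and 0.57.

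Upstream of the members, the interferons themselves gave few or no reads. Of 20 listed ligand genes, 15 had 0 reads in all 13 libraries, which allows up to 3 reads of each, by counting error only. Ifnk, the interferon kappa of epithelia, had 186 reads in all, 6 to 37 in each library and 7 in PreIR-GFP 4. Ifng had 10 reads, none in PreIR-GFP 4, Ifnb1 had 3, all in NonIR 3, and Ifna13 and Ifnab had 1 each. At 1 time point, 300 days on, this says nothing of earlier ligand levels. Of the 6 receptor genes 0 were called in any comparison; Ifnlr1, a chain of the lambda receptor, was lower with neurturin than with GFP with a log2 difference of -0.48 (SE 0.19, unadjusted p = 0.0221, adjusted p = 0.785).

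The other relay genes pointed to different libraries. Jak1, a kinase bound to several interferon receptors, was at 61.4, 58.8 and 61.4 CPM in NonIR, at 91.3, 99.7, 85.1, 63.5 and 92.1 in PreIR-GFP, and at 70.3, 82.1, 69.9, 66.8 and 73.7 in PreIR-NTN. All 10 irradiated libraries lay above the NonIR libraries, and PreIR-GFP 4 was the lowest of them. Its log2 difference of GFP from NonIR was 0.52 (SE 0.14, unadjusted p = 0.00215, adjusted p = 0.288). Jak2 differed by 0.49 (SE 0.19, adjusted p = 0.504). Dhx58, a relative of Ddx58 that tunes RNA sensing, differed by 0.72 (SE 0.21, unadjusted p = 0.00297, adjusted p = 0.339), or 0.57 without PreIR-GFP 4. None of these 3 passed the adjusted threshold. Of 59 tested genes of a separate list of other interferon-induced genes, 0 were called in any comparison, where 0.0136% to 0.034% of all genes were. In PreIR-GFP 4, 33 of them were highest, against 6.97% of all genes. Their median log2 difference of GFP from NonIR was 0.24 (all genes 0.02), or 0.04 without that library (all genes 0.02). Of neurturin from GFP it was -0.32 (all genes -0.01), or -0.16 without it (all genes -0.02).

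Some immune cell markers were highest in PreIR-GFP 4, although no list of them had its highest sum there. It was the highest of 13 libraries for 5 of 22 macrophage and myeloid markers (Aif1, C1qa, C1qb, Fcer1g and Mpeg1) and 3 of 18 T and NK cell markers (Gzmb, Nkg7 and Prf1), against 6.97% of all genes, and for 0 of 13 B and plasma cell and 0 of 4 plasmacytoid dendritic cell markers. A sum follows the most abundant genes of its list. The 22 macrophage and myeloid markers, all tested, summed to 263 CPM in PreIR-GFP 4, the third highest of 13, within 226 to 297 CPM for the GFP group, 206 to 228 for NonIR and 147 to 216 for neurturin. T and NK cell markers (18 of 23 tested) were at 57.0 CPM in that library, the second highest, with 29.1 to 71.8 in the GFP group, 42.8 to 53.1 in NonIR and 17.7 to 44.6 in the neurturin group. B and plasma cell markers (13 of 18 tested) were at 584 CPM in it, the lowest of the GFP group, which reached 3327 CPM in PreIR-GFP 1, against 566 to 1676 in NonIR and 347 to 1204 with neurturin. Plasmacytoid dendritic cells are the cell type best known for interferon alpha, and the sum of their markers (4 of 7 tested) was mostly Tcf4, which other cells also express, at 30.2 of 34.7 CPM in PreIR-GFP 4. Siglech, a receptor of these cells, was lowest of all 13 libraries in PreIR-GFP 4, at 0.542 CPM, while Ccr9, at 2.78 CPM, was the third highest, so the markers gave no common direction. No gene of these 4 lists had 0 reads in all libraries. Between neurturin and GFP, 20 of 22 macrophage markers and 10 of 10 fibroblast markers lay below 0 (medians -0.44 and -0.87). Of all genes 52.7% did, with a median of -0.01. B and plasma cell markers also lay mostly below 0 (1 of 13 above, median -0.75). So did T and NK cell markers (2 of 18 above, median -0.39), while plasmacytoid dendritic cell markers were split (2 of 4 above, median -0.04). Dpt, named after its value was seen, was the 1 fibroblast marker called. Its log2 difference was -1.33 (SE 0.19, adjusted p = 0.0174 with edgeR). The Dpt call was lost under 10 of 22 alternatives, among them limma-voom (adjusted p = 0.0638), the 2 groups alone, library totals without scaling, and leaving out PreIR-GFP 1 or 5 or PreIR-NTN 1, 2, 4 or 5. Over all 22 its adjusted p ran from 1.66e-06 to 0.121 and its log2 difference from -1.47 to -1.18. Fibroblast markers summed to 160 to 210 CPM with neurturin and 261 to 412 with GFP. The part of these cell types in the member differences was not tested.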

How the data were processed

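Libraries were made with SMART-Seq v4 and Nextera XT kits and sequenced on a NextSeq 500, per the labels' protocols. The submitters' processing notes list STAR 2.5.2a, the builds GRCm38.p3 and mm10, and the packages DESeq2, edgeR and limma. The sources used here do not name a counting tool or the role of each package. The authors deposited raw read counts for 48733 entries (48709 genes and 24 spike-in or transgene entries, which held 2.5e-05% of reads and were left out) and a table of normalised signal for 17957 entries. Tested against the counts, that signal was each library's count divided by 1 constant, as in TMM-scaled CPM, and levels are printed from it.

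Differences were tested on the counts with edgeR 4.0.16 (R 4.3.3; filterByExpr, TMM, quasi-likelihood F test, robust, all 13 libraries, group means only). This kept 14727 genes, the 41 members among them. The common dispersion was 0.07 (biological coefficient of variation 0.265), with 10 residual degrees of freedom. Tests were two-sided, adjusted by Benjamini-Hochberg over all genes with a threshold of 0.05, and every adjusted p in the text is edgeR's. SEs came from the fold change and its F statistic. The fits were tested on simulated data. Alternatives were no filter, other scalings, DESeq2 1.42.0, limma 3.58.1 (voom, and trend on the log2 of the deposited signal with a pseudocount of 1 or 0.25), the 2 groups alone, a replicate block and leaving out each library.

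Roles, gene lists and the rule for naming genes (20 representatives of the roles, and the 4 members of smallest p in each comparison) were set with earlier results of these data known, as were the members. Replicates of a group differed far beyond counting noise (chi-square per degree of freedom 29.6 or more). Gene positions and exon lengths came from GENCODE M21 and promoters from RefSeq. The series description names another instrument, other aligners and triplicates, and the sample labels were followed. A result on 1 gene outside the members is not reported here.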

Additional observations from a re-analysis of the deposited data

Results flagged for a closer look

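In 7 of the 82 member-by-group sets of 5 libraries, 1 library stood apart from the other 4: its gap to the nearest exceeded 0.71 of the group's range, Dixon's 95% limit, which chance passes in about 1 of 20 sets. In the GFP group this held for 6 of 41 members, against 6.67% of all genes tested, and in the neurturin group for 1, against 4.96%. PreIR-GFP 4 was the high library in 5 of the 7, whereas it stood apart as the highest for 0.523% of all genes. These 5 were Irgm1 at 142 CPM, Igtp at 137 CPM, Iigp1 at 53.9 CPM, Gbp2 at 49.4 CPM and Zbp1 at 12.5 CPM in that library, 4 GTPases and 1 nucleic acid sensor. The other two were Mx1 in PreIR-GFP 2, at 1.71 CPM, and Xaf1 in PreIR-NTN 5, at 13.9 CPM.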

How the results depend on the processing

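No member was called under any of the 22 alternatives. The number of all genes called depended on the method. It was 5, 3 and 2 for GFP from NonIR, neurturin from GFP and neurturin from NonIR, and 68, 39 and 31 with DESeq2, 25, 20 and 11 without a filter, 0, 0 and 0 on library totals without scaling, 0, 0 and 1 with limma-voom or with the 2 groups alone, 0, 3 and 2 with RLE factors, and 0, 3 and 3 with limma-trend at either pseudocount. Leaving out 1 library gave 0 to 14, 0 to 9 and 0 to 2. Library totals moved the median of all genes for GFP from NonIR to 0.13, and that of the members to 0.39.

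The 54 named results gave 486 values under the 9 settings that kept all libraries, and 474 of these kept their direction. This count does not cover the members that were not named. Stat2, neurturin from GFP, was 0.165 with limma-voom and 0.167 and 0.169 with limma-trend (pseudocounts 1 and 0.25), and Isg15 was 0.005 (pseudocount 0.25). Same-numbered libraries did not deviate together (r from -0.43 to 0.28 over 11 pairs, 3 over 0.1; own number highest in 5 of 22 checks). This check cannot exclude a pairing by number, because large differences between replicates could hide one. With the replicate block 1, 0 and 0 genes were called, and the member medians were 0.16, -0.30 and -0.15, and Dpt was not called (adjusted p = 0.0929). For GFP from NonIR it turned Isg15 (-0.085), Gbp2 (-0.19), Igtp (-0.027), Oasl1 (-0.081) and Trim25 (-0.009), and for neurturin from GFP Stat2 (0.21), Isg15 (0.11) and Bst2 (0.083).

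Leaving out 1 library turned 12 named results. For GFP from NonIR the ranges were -0.013 to 0.36 for Irf1, -0.22 to 1.63 for Zbp1, -0.31 to 0.92 for Isg15, -0.57 to 0.41 for Bst2, -0.48 to 0.76 for Gbp2, -0.24 to 0.90 for Igtp, -0.068 to 0.22 for Oasl1 and -0.038 to 0.22 for Trim25. For neurturin from GFP they were -0.23 to 0.48 for Stat2, -0.53 to 0.027 for Irf7, -0.50 to 0.47 for Isg15 and -0.44 to 0.35 for Bst2. The cause was not tested. Oas3 and Mx1 had the fewest reads of the members, and depth limits their values most.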

Other observations

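Beside PreIR-GFP 4, NonIR 2 and PreIR-GFP 2 shared its high members, a pattern picked out after the values were seen and given without a test. These 3 libraries were the 3 highest of 13 for 11 of 41 members (26.8%), against 0.598% of all genes tested. The 11 were the 6 GTPases Gbp2, Gbp3, Gbp7, Igtp, Irgm1 and Iigp1, with Ifi44, Ifih1, Ifit3, Rtp4 and Zbp1. Of 59 other interferon-induced genes 15 had the same 3 on top, among them Gbp4, Irgm2, Psmb8 and Tap1, the last of these a peptide transporter of antigen presentation. Of 18 T and NK cell markers 1 did, Gzma, a granzyme of cytotoxic cells, and of 22 macrophage and 13 B and plasma cell markers 0 did. Of the 8 members of the pattern with a promoter entry 6 held the ISRE core, and of the 23 other members with an entry 7 did. The 6 include the similar, neighbouring genes Gbp2, Gbp3 and Gbp7. The GAS core was held by 2 of the 8 and by 5 of the 23.

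A different set of 4 libraries was low for another 4 of the 41 members (9.76%), close to the share of all genes. This pattern too was picked out after the values were seen and is given without a test. NonIR 1, PreIR-GFP 1, PreIR-GFP 5 and PreIR-NTN 2 were the 4 lowest of 13 for Isg15, Bst2, Ifi27 and Dtx3l, while 6.73% of all genes had the same 4 lowest. Those genes had a median exon length of 1702 bases, against 4039 for all genes tested. Isg15, Bst2 and Ifi27 have 756, 903 and 1467 bases, and Dtx3l, at 5725, is longer than the median of all genes. PreIR-GFP 1, PreIR-GFP 5 and PreIR-NTN 2 also had the 3 lowest shares of reads in the 10 most abundant genes, 29.7%, 37.2% and 39.5%, and NonIR 1 had 43.1%, above PreIR-NTN 3 at 42.7%. The part of exon length or of that share in these levels was not tested.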
